A study of Homo sapiens with 6 samples.

Results

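The genes described here are 52 genes of the cytosolic chaperonin, its helper prefoldin, the heat shock proteins and their cochaperones, taken by their gene names. A gene was measured where the array annotation gave a probe set (a group of oligonucleotides that reads one transcript) with its symbol alone, and the probe set with the highest mean over the 6 arrays stood for it. This gave 45 of the 52 genes, and all 45 were among the 9887 tested genes of 19775 measured. TCP1, PFDN6, HSPA8, HSPA1A and HSPA1B (5 genes) were named only on probe sets with several symbols and, together with AHSA1 and HSF2, were not analysed here. HSPA8 and the HSPA1 pair, the main cytosolic HSP70 genes, are therefore not described.

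Molecular chaperones help other proteins to fold. The chaperonin TRiC, also called CCT, encloses actin, tubulin and other newly made proteins in stacked rings of related subunits, and prefoldin delivers unfolded chains to it. HSP70 proteins bind exposed hydrophobic stretches in a cycle driven by ATP, J-domain (DNAJ) proteins bring them clients, and nucleotide exchange factors reset them. HSP90 acts later on kinases and steroid receptors with the help of cochaperones. Cancer cells are known for high levels of these proteins, and the heat shock factor HSF1 raises many of them when unfolded protein accumulates.

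The cells were OVCA433, a line of high-grade serous ovarian cancer whose RNA was hybridised to U133 Plus 2.0 oligonucleotide arrays from Affymetrix. In the 3 control dishes the medium was exchanged, 24 hours after seeding, for fresh medium lacking versican, and in the 3 treated dishes for fresh medium with versican, a large matrix proteoglycan. All dishes had 10% serum, and RNA was taken at 48 hours. The labels call the harvested cells transfected and count these hours from transfection, so the time with versican is not certain. Neither dose nor form of the versican is given in the sources used here. The submitters describe 3 independent samples per group without saying whether they were separate cultures. The p-values therefore reflect only how these samples vary, and that variation may be technical.

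The correlation of log2 signals was 0.993 to 0.995 within groups and 0.969 to 0.972 between them. The keratins KRT7, KRT8 and KRT18 and the Müllerian factor PAX8 passed the filter with 3 other of 8 epithelial markers, while WT1 did not. Among markers of other cells, 1 of 9 fibroblast, 1 of 5 leukocyte and 0 of 4 endothelial genes passed the filter, and no marker was listed at 0. Summed signals of the fibroblast markers were 5210 to 5303 in control and 2714 to 3226 in versican arrays, those of the leukocyte markers 975.5 to 1021 and 1178 to 1275, and those of the endothelial markers 225.8 to 378.4 and 222 to 315.3. Most of the fibroblast sum came from COL1A1 alone, at 4781 to 4986 in control and 2425 to 2889 in versican arrays. Most of the leukocyte sum came from LAPTM5, at 782 to 793 and 958 to 991.5. These sums therefore describe single genes more than marker sets. Of the markers that passed, PAX8 and the leukocyte gene LAPTM5 rose while KRT19 and the fibroblast gene COL1A1 fell. Control probe sets for 18S ribosomal RNA averaged 5454 ± 169 without versican and 6342 ± 358 with it (SD, n = 3 each), while the 3'/5' ratio of ACTB was 1.26 ± 0.035 and 1.25 ± 0.013. Their part in the results was not tested, and in bulk RNA fewer cells of a kind cannot be told apart from less RNA per cell.

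The question was whether chaperone transcripts differed between treated and untreated cells. With versican, 22 of the 45 genes rose and 2 fell, while 21 did not pass the threshold (limma, Benjamini-Hochberg adjusted p under 0.05 over all tested genes). Thus 48.9% rose and 4.44% fell, where 21.0% and 20.6% of all tested genes did, 41.6% in all. The changes were small: the median log2 fold change of the 45 genes was 0.18, against 0.007 for all tested genes, and none reached 2-fold. By mean signal 38 of them were in the upper 25% of all measured genes, and of all tested genes in that class 25.7% rose. Groups did not overlap for 26 of the 45 genes, where 52.2% of all tested genes had this. More than 50% of the measured members rose in TRiC/CCT, the mitochondrial chaperonin, the nucleotide exchange factors, HSP70 with HSP110, and the HSP90 cochaperones. None rose among HSP90, the small heat shock proteins and the heat shock factors.

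**Figure D1:**
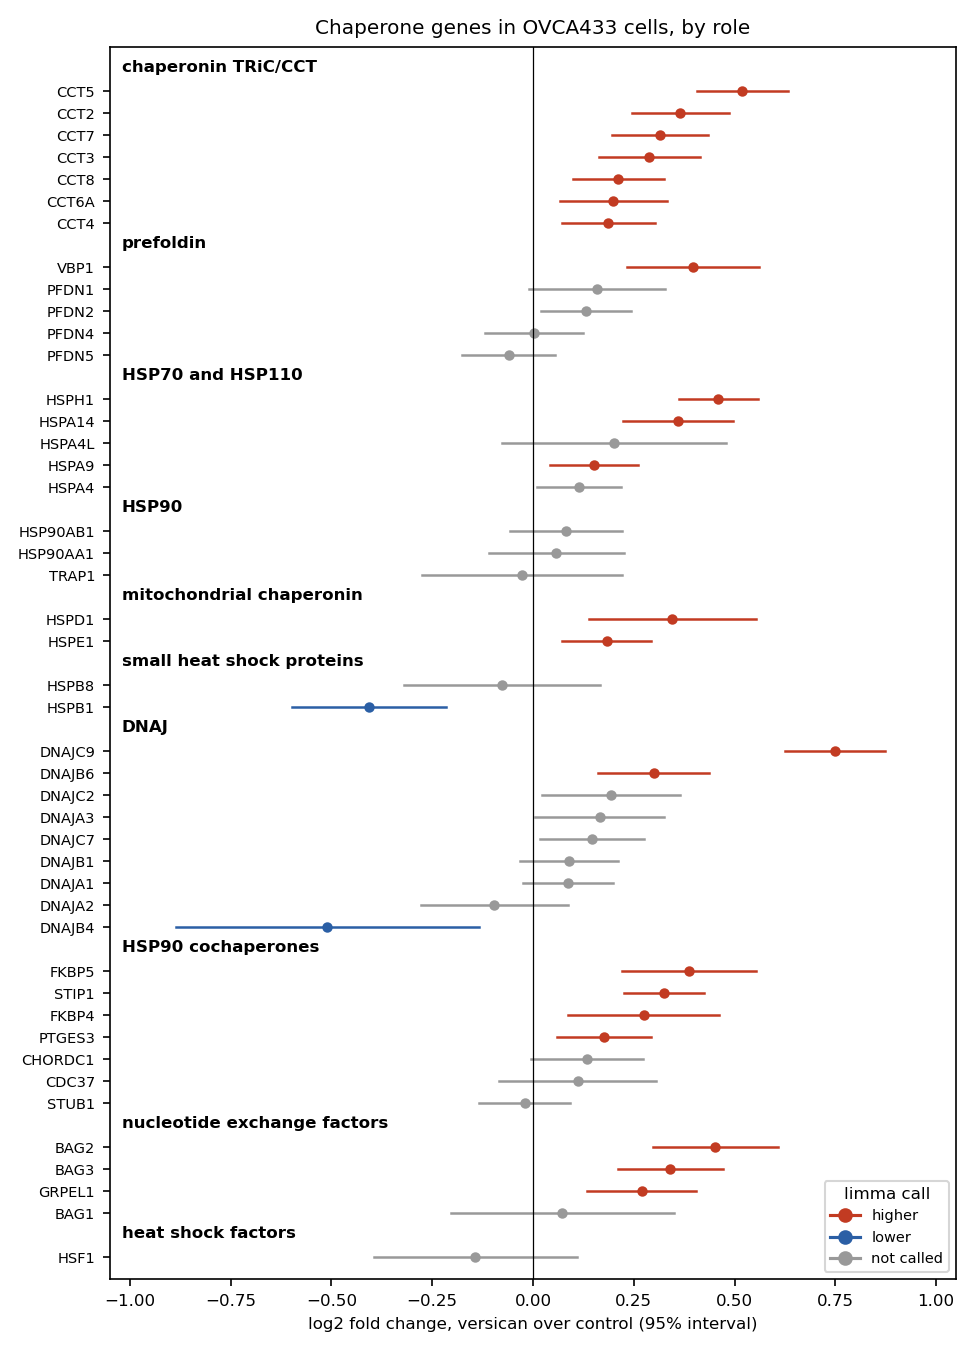
Log2 fold change of the 45 measured chaperone genes, versican over control, with 95% intervals from the limma fit (3 arrays per group), ordered by size within each role; red genes were called higher, blue genes lower and grey genes neither. All 7 measured TRiC/CCT genes lie to the right of 0 with red marks, and the 3 HSP90 genes have intervals that cross 0.

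Promoter sequences are shown because HSF1 acts through a known DNA element, the heat shock element, made of inverted GAA units. RefSeq promoter windows (GRCh38.p14, 250 bases before to 50 after the start) matched 45 of the 52 genes. The element was searched as GAANNTTC followed directly by NNGAA, and as its reverse complement, TTCNNGAA followed by NNTTC, which covers both strands. It was present in 4 of the 45 windows (8.89%) and in 172 of 35116 windows of all genes (0.49%). Of these 4 genes DNAJB6 rose, CHORDC1 and DNAJA1 did not pass the test, and HSPA8 was not analysed here. A shorter form with a pair of units (GAANNTTC or TTCNNGAA, each its own reverse complement and also part of the longer one) was in 13 of 45 windows (28.9%) and in 13.5% of all windows. Among genes that passed the test it was in 4 of 18 windows of genes that rose and in 1 of the 2 that fell. The shorter form was also in 3 of 18 windows of uncalled genes and in 5 of 7 windows of genes not analysed here. A match of letters is a description and not a binding site. The following stretches lie before the start, are written 5′ to 3′ on the gene's strand, and have the matched letters in capitals. They are the measured genes with the longer element and the called genes with the shorter one, where it lies before the start.
DNAJB6 (chr7:157336858-157336900, + strand, called higher): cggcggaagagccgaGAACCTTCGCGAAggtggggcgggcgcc
CHORDC1 (chr11:90223072-90223124, - strand, not called, 3 overlapping matches): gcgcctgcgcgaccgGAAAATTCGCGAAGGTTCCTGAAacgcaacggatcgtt
BAG2 (chr6:57172187-57172224, + strand, called higher, short form): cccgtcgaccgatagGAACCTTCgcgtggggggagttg
HSPB1 (chr7:76302476-76302513, + strand, called lower, short form): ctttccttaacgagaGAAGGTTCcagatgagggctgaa

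The chaperonin TRiC/CCT was higher in every measured part. All 7 measured subunits (of 8) were called higher, with log2 fold changes between 0.19 and 0.52 and a median of 0.29 (1.22-fold). Among all tested genes 21.0% rose. The control and versican arrays did not overlap for any of the 7 subunits. This also held for all 22 chaperone genes that rose and for 52.2% of all tested genes. CCT5, the epsilon subunit, changed most. Its signals were 6854, 7362 and 6799.6 on the control arrays and 10183, 9763 and 10171 on the versican arrays. Every versican array was thus well above every control array, a rise of 1.43-fold (log2 0.52, SE 0.051, adjusted p = 2.7e-05). CCT2, the beta subunit, had signals of 8290, 9069.9 and 8923 on the control arrays and 10932, 11708 and 11212 on the versican arrays. The groups lay apart, a rise of 1.29-fold (log2 0.36, SE 0.054, adjusted p = 0.00044). CCT7, the eta subunit, read 4900.5, 5216 and 4949 on the control arrays and 6218, 5963 and 6581 on the versican arrays. The lowest versican array again exceeded the highest control array (1.24-fold higher, log2 0.32, SE 0.053, adjusted p = 0.001). CCT4, the delta subunit, had signals of 11622, 12608 and 11792 on the control arrays and 13818, 13812 and 13362 on the versican arrays. That was the smallest rise of the complex, at 1.14-fold (log2 0.19, SE 0.052, adjusted p = 0.015), and the second control array came close to the versican arrays. CCT3, the gamma subunit, went from 8301 ± 491 to 10128 ± 313 (SD, n = 3 each). That was a rise of 1.22-fold (log2 0.29, SE 0.056, adjusted p = 0.0025). CCT8, the theta subunit, rose 1.16-fold (adjusted p = 0.0073) and CCT6A, a zeta subunit, 1.15-fold (adjusted p = 0.021).

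The size of these rises differed between probe sets of one gene. Further probe sets of CCT2, CCT5 and CCT6A gave log2 fold changes of 0.52, 0.60 and 0.36, each larger than that of the probe set used, and all 3 passed when every probe set was its own unit (adjusted p = 5.6e-05, 0.0034 and 0.0012). A dim further probe set of CCT4 gave -0.10 and did not pass (adjusted p = 0.65). The calls of the 3 smallest rises were the least firm. CCT6A missed the threshold without control replicate 2 or 3 (adjusted p = 0.074 and 0.067) and without versican replicate 1 or 3 (0.066 and 0.078), and CCT4 without control replicate 3 (0.062) or versican replicate 1 (0.068). After median centring CCT4, CCT6A and CCT8 were not called (adjusted p = 0.22, 0.12 and 0.16), although their log2 fold changes were 0.21, 0.22 and 0.23. With the mean of probe sets the log2 fold change of CCT4 was 0.041 and that of CCT8 0.15, neither called (0.67 and 0.52), and without an intensity trend CCT6A was not (0.053).

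Prefoldin, which hands unfolded actin and tubulin to TRiC/CCT, had 1 called member. Of 5 measured subunits (of 6) this was VBP1, and the median log2 fold change was 0.13. The share called, 20%, was below the 41.6% of all tested genes. As a share that rose, it was near the general 21.0%. VBP1, also known as PFDN3, had signals of 6582, 7369 and 7325 on the control arrays and 8392, 9743 and 9939 on the versican arrays. All versican arrays lay above the control arrays, the first of them nearest, and the rise was 1.32-fold (log2 0.40, SE 0.073, adjusted p = 0.0018). PFDN2 read 5362, 5812 and 5728 on the control arrays and 6275, 6231 and 6006 on the versican arrays. Its groups did not overlap, but the difference missed the threshold (log2 fold change 0.13, 95% interval 0.020 to 0.24, adjusted p = 0.058). PFDN1 had signals of 2970, 2702 and 2732 on the control arrays and 3468, 2810 and 3142 on the versican arrays. The second versican array lay among the controls (log2 fold change 0.16, 95% interval -0.009 to 0.33, adjusted p = 0.12). PFDN5, also known as a MYC-binding protein, read 8890.2, 9479 and 9377 on the control arrays and 8605, 9286 and 8725 on the versican arrays. Its groups overlapped (log2 fold change -0.060, 95% interval -0.18 to 0.055, adjusted p = 0.38). PFDN4 had a log2 fold change of 0.003 (95% interval -0.12 to 0.12, adjusted p = 0.97). Leaving out single arrays brought PFDN2 (adjusted p = 0.049 without control replicate 2) and PFDN1 (0.022 without versican replicate 2) past the threshold. PFDN2 was also called after quantile normalization (0.025) and among the upper 25% of genes (0.044), and PFDN1 with array weights (0.035).

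**Figure D2:**
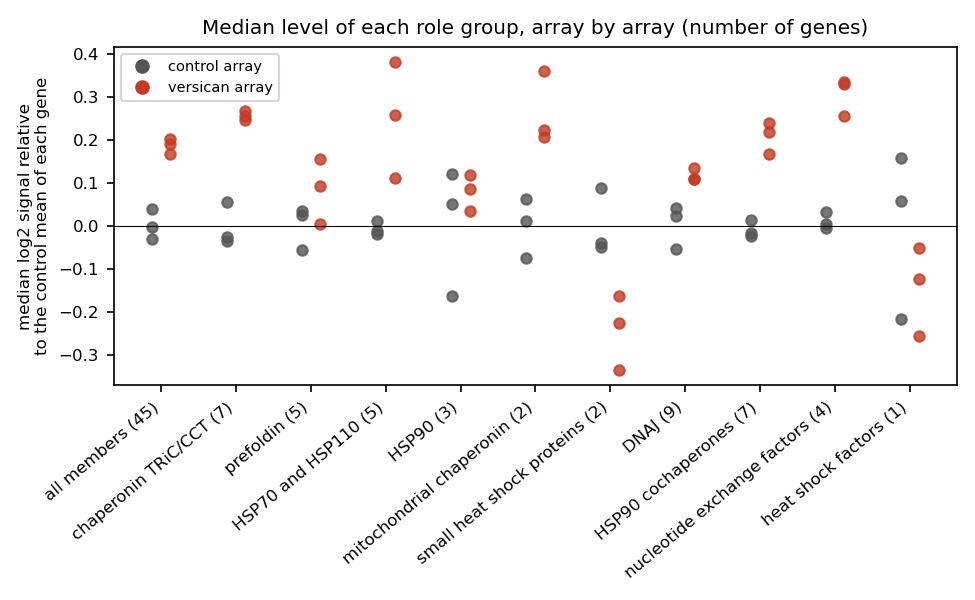
Median log2 signal of each role group on each array, after subtracting each gene's own control mean; grey points are control arrays and red points versican arrays, and the number of genes is in brackets. The 3 versican arrays lie at 0.25 to 0.27 for TRiC/CCT and at 0.26 to 0.34 for the nucleotide exchange factors, above all controls of those groups, while control and versican arrays overlap for HSP90 and prefoldin.

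Of the HSP70 family and its HSP110 relatives, 3 of 5 measured members (of 8) were called higher and none lower (median log2 fold change 0.20). The share that rose was thus 60%, against 21.0% of all tested genes. HSPH1, the HSP110 protein that resets HSP70 and helps to dissolve aggregates, changed most. Its signals were 6664, 6719 and 6609 on the control arrays and 9268, 9034 and 9190.3 on the versican arrays. Both groups were tight and far apart, and the rise was 1.37-fold (log2 0.46, SE 0.044, adjusted p = 2.4e-05). HSPA14, a ribosome-bound HSP70 relative, read 1133, 1114 and 1182 on the control arrays and 1432, 1548 and 1434 on the versican arrays. Here too the groups lay apart, and it rose 1.28-fold (log2 0.36, SE 0.061, adjusted p = 0.001). HSPA9, the mitochondrial HSP70 called mortalin, had signals of 8335, 8701 and 8357 on the control arrays and 9118, 9316 and 9776 on the versican arrays. Its groups did not overlap, and the rise was 1.11-fold (log2 0.15, SE 0.049, adjusted p = 0.032). HSPA4, also of the HSP110 kind, had 4111, 4372 and 4117 on the control arrays and 4542, 4578 and 4525 on the versican arrays. That difference did not pass (log2 fold change 0.12, 95% interval 0.011 to 0.22, adjusted p = 0.074). HSPA4L, its close relative, had signals of 410.5, 346 and 362 on the control arrays and 361, 489 and 448 on the versican arrays. Its first versican array lay within the controls (log2 fold change 0.20, 95% interval -0.078 to 0.48, adjusted p = 0.23).

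Further probe sets widened or narrowed these values. HSPA9 had 2 further tested probe sets, with log2 fold changes of 0.19 and 0.35, both called (adjusted p = 0.036 and 0.0086), and HSPH1 had one at 0.60, called (0.00085), and a dim one at 0.33, not called (0.13). A further probe set of HSPA4L gave 0.58 and passed (adjusted p = 0.025), while the 2 of HSPA14 gave 0.20 and 0.38 and did not (0.2 and 0.069). HSPA9 was not called without control replicate 1 (adjusted p = 0.057) or 3 (0.098), or without versican replicate 1, 2 or 3 (0.056, 0.06 and 0.13), and HSPA4 was called without control replicate 2 (0.045). HSPA9 was also lost with no filter (0.063), after median centring (0.29, log2 fold change 0.17), with no trend (0.068) and with the mean of probe sets (0.064, log2 fold change 0.17), where HSPA4L was called (0.019). HSPH1 was lost where probe sets ending in _x_at and _s_at were left out (0.13), since only its dim probe set remained.

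None of the 3 HSP90 genes was called, where 41.6% of all tested genes were. HSP90AA1, the stress-inducible cytosolic form, had signals of 23431, 28303 and 27175 on the control arrays and 26505, 28453 and 26948 on the versican arrays. The first control array was the lowest of the 6 and the others overlapped (log2 fold change 0.058, 95% interval -0.11 to 0.23, adjusted p = 0.57). HSP90AB1, the constitutive form, read 15435, 17764 and 15893 on the control arrays and 17343, 17794 and 16748 on the versican arrays. Its groups overlapped too (log2 fold change 0.082, 95% interval -0.058 to 0.22, adjusted p = 0.33). TRAP1, the mitochondrial HSP90, had 1005, 1353 and 1245 on the control arrays and 1312, 1137 and 1072 on the versican arrays. Its arrays were mixed (log2 fold change -0.028, 95% interval -0.28 to 0.22, adjusted p = 0.86). For the cytosolic pair the intervals leave room for a rise of up to 0.23 and 0.22 on the log2 scale. Of 4 probe sets for HSP90AA1 one was called higher (log2 fold change 0.26, adjusted p = 0.0059 with every probe set as its own unit), and the other three gave 0.058, 0.16 and 0.073 without passing. HSP90AB1 was called without control replicate 2 (log2 fold change 0.14, adjusted p = 0.042), and HSP90AA1 turned to -0.022 after quantile normalization and -0.023 without control replicate 1, without a call.

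HSPD1 and HSPE1 encode HSP60 and HSP10, the barrel and lid of the mitochondrial chaperonin, and both rose, where 21.0% of all tested genes did. HSPD1 had signals of 17138, 20324 and 20465 on the control arrays and 23348, 27779.8 and 22531 on the versican arrays. The second versican array stood highest and the first control array lowest, without overlap between groups (1.27-fold higher, log2 0.34, SE 0.093, adjusted p = 0.014). HSPE1 read 5031, 4772 and 5095 on the control arrays and 5453, 5676 and 5789.7 on the versican arrays. The groups did not overlap, with a rise of 1.14-fold (log2 0.18, SE 0.049, adjusted p = 0.013). A second bright probe set of HSPD1 gave 0.32 (adjusted p = 0.00074). The genes lie head to head on chromosome 2. The 104 bases between their RefSeq starts are shown because the transcripts start just outside either end of this interval. Neither form of the heat shock element searched above occurs in it.
HSPE1 and HSPD1 (chr2:197500275-197500378, + strand, which is the strand of HSPE1): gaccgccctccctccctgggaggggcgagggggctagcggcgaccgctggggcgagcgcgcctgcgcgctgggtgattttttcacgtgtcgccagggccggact
HSPE1 was not called without versican replicate 3 (adjusted p = 0.056) or after median centring (0.16, log2 fold change 0.20). HSPD1 was lost where probe sets ending in _x_at and _s_at were left out (0.31), which left a dim one.

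Of the small heat shock proteins, which hold unfolded proteins without using ATP, 1 of 2 fell and none was called higher. Among all tested genes 20.6% fell. HSPB1, known as HSP27, had signals of 12470.2, 16299 and 13477 on the control arrays and 10418, 10695 and 10557 on the versican arrays. The versican arrays were tightly grouped below every control array, whose second member stood highest. HSPB1 fell by 0.41 on the log2 scale (1.32-fold lower, SE 0.086, adjusted p = 0.0037) and kept its call in all 18 alternatives where it was tested. HSPB8, which works with BAG3 in selective autophagy of aggregates, read 414, 382 and 386 on the control arrays and 386, 412 and 326 on the versican arrays. Its groups overlapped (log2 fold change -0.076, 95% interval -0.32 to 0.17, adjusted p = 0.61).

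**Figure D3:**
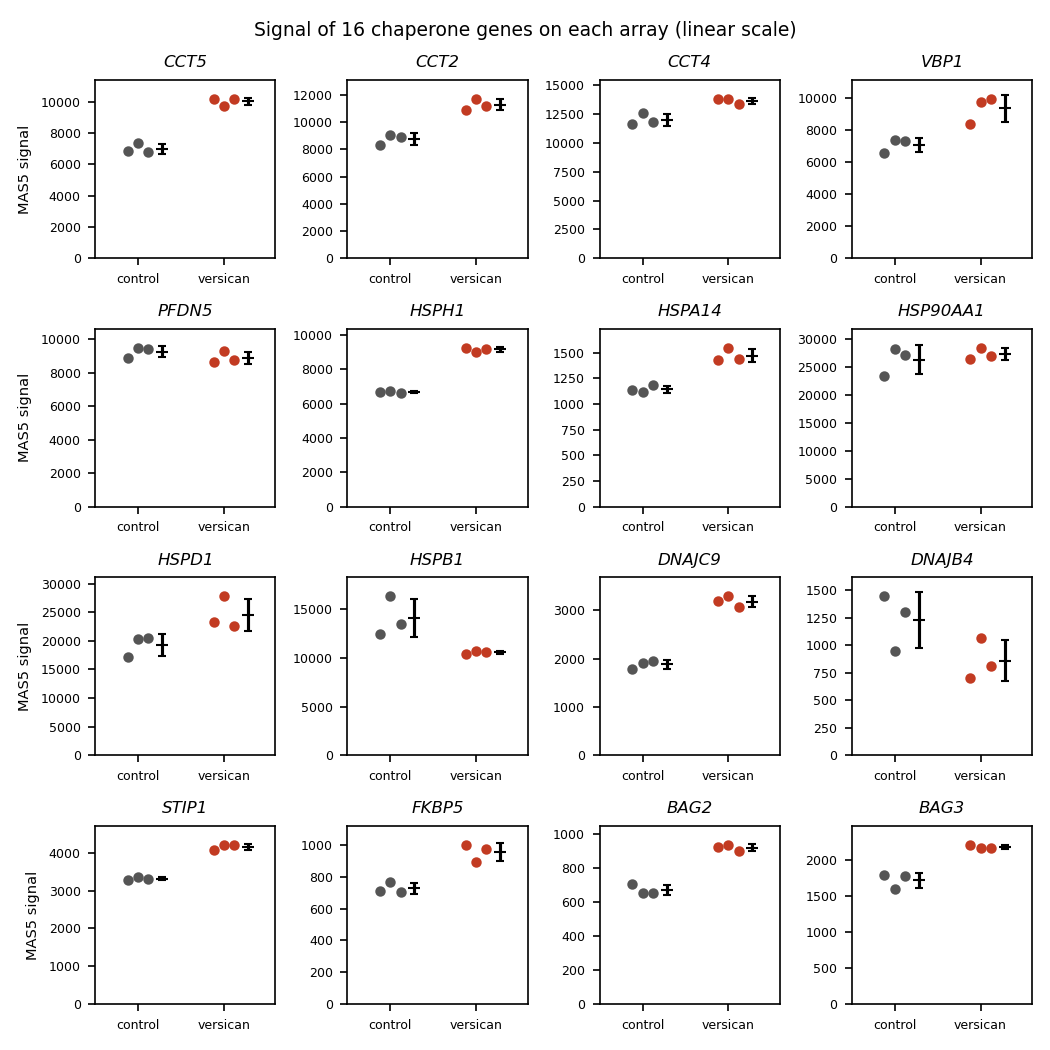
MAS5 signal (linear scale, from 0) of 16 chaperone genes on each of the 3 control (grey) and 3 versican (red) arrays, with the mean and SD of each group in black. CCT5, HSPH1, DNAJC9, STIP1, BAG2 and BAG3 have versican points above all control points, HSPB1 has them below, and those of HSP90AA1, PFDN5 and DNAJB4 overlap with the controls.

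Of 9 measured J-domain proteins 2 rose and 1 fell (median log2 fold change 0.15). The share called, 33.3%, was below the 41.6% of all tested genes, and the share that rose, 22.2%, was near the general 21.0%. DNAJC9, which binds histones H3 and H4 as well as HSP70, had the largest change of all 45 genes. Its signals were 1781, 1916 and 1957 on the control arrays and 3183, 3286 and 3061 on the versican arrays. The groups were far apart, with a rise of 1.68-fold (log2 0.75, SE 0.056, adjusted p = 5e-06), and a second probe set gave 0.76 (adjusted p = 0.00016). DNAJB6, a suppressor of aggregation whose promoter stretch is printed above, read 1883, 2181 and 2027 on the control arrays and 2531, 2431 and 2533 on the versican arrays. The second control array was nearest to the versican arrays, and it rose 1.23-fold (log2 0.30, SE 0.062, adjusted p = 0.0033). A pair of probe sets that the annotation gives to both DNAJB6 and TMEM135 was left out by the rule, and their groups overlapped. One read 4097, 4329.7 and 3791 on control and 4175, 3779.8 and 4707 on versican arrays. The other read 2258, 1677 and 1874 on control and 2083, 1985 and 2063 on versican arrays. DNAJB4, a relative of DNAJB1, had 1446, 948 and 1305 on the control arrays and 701, 1063 and 816 on the versican arrays. The second array of each group ran against the difference and the groups overlapped. DNAJB4 fell by 0.51 on the log2 scale (1.42-fold lower, SE 0.17, adjusted p = 0.034), and its second probe set gave -0.39 (adjusted p = 0.032). DNAJA1, a main partner of HSP70 in the cytosol, had signals of 9196, 9622 and 9815 on the control arrays and 9811, 10111 and 10486 on the versican arrays. The first versican array lay just below the highest control array, and the probe set used did not pass (log2 fold change 0.087, 95% interval -0.026 to 0.20, adjusted p = 0.2), whereas a second one gave 0.41 (adjusted p = 0.00096).

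The remaining J-domain genes were not called. DNAJB1, the HSP40 that HSF1 is known to induce, had a log2 fold change of 0.089 (adjusted p = 0.22), and its second probe set was called lower at -0.22 (0.022), so its probe sets disagreed in sign. DNAJA2, a cytosolic partner of HSPA8, had -0.096 (adjusted p = 0.38), and its second probe set was called lower at -0.26 (0.022). DNAJA3, a mitochondrial form, had 0.17 (adjusted p = 0.091), with a second probe set called higher at 0.24 (0.018). DNAJC2, which sits on the ribosome with HSPA14, had 0.19 (adjusted p = 0.068), and DNAJC7, which also binds HSP90, 0.15 (adjusted p = 0.067). DNAJB4 lost its call without control replicate 1 or 3 (adjusted p = 0.12 and 0.089) and without versican replicate 1 or 3 (0.12 and 0.088), as well as with no filter (0.062), no trend (0.066) and the replicate number as a block (0.061). DNAJA3 was called without control replicate 2 (0.028) and DNAJC2 without versican replicate 3 (0.0078), and with the mean of probe sets DNAJA1 and DNAJA3 were called (0.0029 and 0.028).

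Among cochaperones of HSP90, 4 of 7 measured genes (of 8) were called higher and none lower. Their median log2 fold change was 0.18, and 57.1% of them rose, against 21.0% of all tested genes. STIP1, known as HOP, passes clients from HSP70 to HSP90. Its signals were 3291, 3355 and 3321 on the control arrays and 4082, 4208 and 4215 on the versican arrays. Both groups were tight and apart, with a rise of 1.25-fold (log2 0.33, SE 0.045, adjusted p = 0.00028). FKBP5, an immunophilin that restrains steroid receptors, read 711, 769 and 708 on the control arrays and 1002, 894 and 978 on the versican arrays. It rose 1.31-fold (log2 0.39, SE 0.074, adjusted p = 0.0023), without overlap. PTGES3, the p23 cochaperone that stabilises closed HSP90, had 17764, 18670.2 and 17749 on the control arrays and 20281, 19893 and 21038 on the versican arrays. All versican arrays were higher, by a small margin (1.13-fold, log2 0.18, SE 0.052, adjusted p = 0.022). FKBP4, the related immunophilin FKBP52, went from 1019.9 ± 116 to 1232 ± 25.1 (SD, n = 3 each). It was 1.21-fold higher (log2 0.28, SE 0.084, adjusted p = 0.024). CHORDC1, an HSP90 partner with the heat shock element printed above, went from 1664 ± 57.2 to 1829 ± 116 (SD, n = 3 each) and did not pass (log2 fold change 0.13, 95% interval -0.004 to 0.27, adjusted p = 0.11). CDC37, which recruits kinases to HSP90, did not pass (log2 fold change 0.11, 95% interval -0.084 to 0.31, adjusted p = 0.34), nor did STUB1, the ubiquitin ligase CHIP (log2 fold change -0.021, 95% interval -0.13 to 0.092, adjusted p = 0.77), although one of the 2 further STUB1 probe sets was called higher at 0.16 (adjusted p = 0.048).

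A further probe set was called higher for STIP1 (log2 fold change 0.40, adjusted p = 0.00015) and FKBP5 (0.37, 0.03), and that of FKBP4 was not called (0.17, 0.26). FKBP4 was not called without control replicate 3 (adjusted p = 0.071) or versican replicate 1 or 2 (0.068 and 0.06), and PTGES3 not without control replicate 3 (0.09) or versican replicate 1 or 3 (0.076 and 0.11). PTGES3 was also lost after quantile normalization (0.057) and median centring (0.29), where its log2 fold change was 0.20. With the mean of probe sets, dim ones included, FKBP4 was at 0.03 and FKBP5 at 0.22 on the log2 scale, neither called (0.88 and 0.18).

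Of 4 nucleotide exchange factors, 3 were called higher, and the median of the group was 0.31 on the log2 scale (1.24-fold). The share that rose was thus 75%, against 21.0% of all tested genes. BAG2, which inhibits the ligase CHIP, had signals of 705, 652 and 653 on the control arrays and 928, 938 and 901 on the versican arrays. Every versican array lay above the controls, a rise of 1.37-fold (log2 0.45, SE 0.07, adjusted p = 0.00058). BAG3, which links HSP70 to autophagy, read 1788, 1595 and 1768 on the control arrays and 2205, 2166 and 2159 on the versican arrays. The second control array was lowest, no array overlapped, and it rose 1.27-fold (log2 0.34, SE 0.058, adjusted p = 0.0011). GRPEL1, the exchange factor of mitochondrial HSPA9, had 1548, 1679 and 1651 on the control arrays and 2021, 2027 and 1846 on the versican arrays. The third versican array was nearest to the controls, and the rise was 1.21-fold (log2 0.27, SE 0.061, adjusted p = 0.0053), while a second probe set gave -0.047 and did not pass (adjusted p = 0.66). BAG1, which couples HSP70 to the proteasome, read 1889, 2379 and 2539 on the control arrays and 2122, 2830.5 and 2216 on the versican arrays. Its arrays were scattered in both groups (log2 fold change 0.073, 95% interval -0.20 to 0.35, adjusted p = 0.67). With the mean of probe sets BAG2 was at 0.16 and GRPEL1 at 0.11 on the log2 scale, neither called (adjusted p = 0.34 and 0.12). HSF1, the master regulator of the heat shock response, had signals of 527, 566 and 432 on the control arrays and 462, 421 and 488 on the versican arrays. The third control array was the second lowest of the 6 and its transcript was not called (log2 fold change -0.14, 95% interval -0.40 to 0.11, adjusted p = 0.34).

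**Figure D4:**
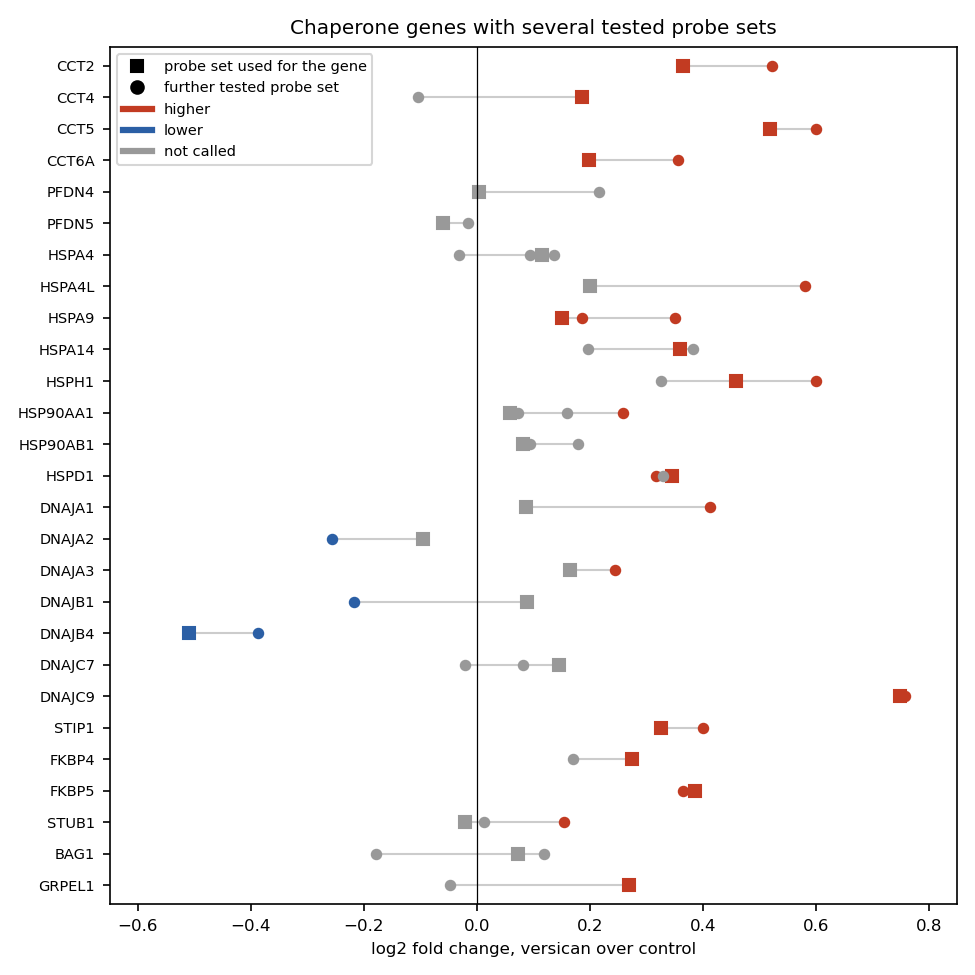
Log2 fold change of every tested probe set for the 27 chaperone genes with more than 1, squares for the probe set used and circles for the further ones, coloured by the call when each probe set was its own unit. Genes such as CCT5, HSPA9, DNAJC9 and STIP1 have all their marks on the right and red, while DNAJB1, CCT4, BAG1 and GRPEL1 have marks on both sides of 0.

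Probe sets of one gene could be compared for 27 of the 45 genes. Of the 13 called higher with a further tested probe set, 9 had one that was also called higher and none had one called lower. Of the 13 uncalled ones, 5 had a further probe set called higher (HSPA4L, HSP90AA1, DNAJA1, DNAJA3 and STUB1) and 2 had one called lower (DNAJA2 and DNAJB1). When every probe set was its own unit, 33.2% of tested probe sets on the array were called, 16.5% higher and 16.7% lower. Of the 45 genes, 25 were read by probe sets ending in _s_at or _x_at, which can read related transcripts or pseudogene copies, and their signals cannot be assigned to 1 gene with certainty. Among the 22 genes that rose, 10 kept the call in every alternative in which they were tested: CCT2, CCT3, CCT5, CCT7, VBP1, HSPA14, DNAJB6, DNAJC9, STIP1 and BAG3. CCT3, CCT7, VBP1, DNAJB6 and BAG3 have 1 probe set each, so averaging probe sets could not change their values. CCT2, DNAJB6, DNAJC9, STIP1 and BAG3 were not tested where _x_at and _s_at probe sets were left out. The list thus depends partly on the probe sets each gene has.

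Other genes of the network were counted by list for comparison. Of 23 tested partners and clients of TRiC/CCT, 9 rose and 1 fell, with a median log2 fold change of 0.12. The share called, 43.5%, was near the 41.6% of all tested genes, while 39.1% rose against 21.0%. Those with the smallest p were TUBB4B, a beta tubulin (1.47-fold higher, adjusted p = 2e-05), TXNDC9, a phosducin-like regulator of the chaperonin (1.47-fold, 5.7e-05), and TUBB3 (1.29-fold, 0.00023); TUBB2B was 1.23-fold lower (adjusted p = 0.014). Tubulin genes are near-identical, so their signals may be shared. ACTB, a main client, had a log2 fold change of 0.12 (adjusted p = 0.23, chosen after its value was seen). Of 22 other J-domain genes 3 rose (DNAJC10, an endoplasmic reticulum reductase, DNAJC8 and DNAJC13, at 1.19-fold, 1.16-fold and 1.22-fold) and 7 fell, with DNAJB2, GAK and DNAJC4 at -0.42, -0.26 and -0.39 on the log2 scale. The median there was -0.006. Their called share, 45.5%, was near the 41.6% of all tested genes. By direction, 13.6% rose and 31.8% fell, against 21.0% and 20.6% of all tested genes.

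Of 25 other genes of the HSP70, HSP90 and small heat shock protein machinery, 8 rose and 2 fell (median log2 fold change 0.13). The 40% called was again near the general share of 41.6%. By direction, 32% rose and 8% fell, where 21.0% and 20.6% of all tested genes did. NUDC, an HSP90 cochaperone that acts with dynein, rose 1.41-fold (log2 0.50, SE 0.064, adjusted p = 0.00018), TOMM34, which binds both HSP70 and HSP90, 1.34-fold (adjusted p = 0.0004) and PPP5C, the phosphatase bound to HSP90, 1.48-fold (adjusted p = 0.0023). SGTB and FNIP2 fell by 0.30 and 0.28 on the log2 scale. HSPA6, an HSP70 gene that is strictly heat-inducible, was chosen after its value was seen. Its signals were 254, 145 and 130 on the control arrays and 278, 288 and 325 on the versican arrays. The first control array was highest of its group, yet below the versican arrays, and HSPA6 rose 1.69-fold (log2 0.76, SE 0.21, adjusted p = 0.015). Its control mean, 176, lay below 201.3, the lowest mean signal of a tested gene, while its versican mean was 297. HSPA6 thus passed the filter through its versican arrays, which limits what its p-value can show. The alternatives were not examined for it. Of 14 genes of mitochondrial import and quality control 2 rose, DNLZ and HTRA2 at 1.19-fold and 1.27-fold, and 2 fell, OMA1 and GRPEL2 at -0.64 and -0.28 on the log2 scale (median 0.038). The share called there was 28.6%, below the 41.6% of all tested genes. In each direction it was 14.3%, where 21.0% of all tested genes rose and 20.6% fell. The groups of HTRA2 overlapped, with 948 on the second versican array and 992 on the first control array. GRPEL2, the second mitochondrial exchange factor, thus went down (log2 -0.28, SE 0.053, adjusted p = 0.0021) where the probe set used for GRPEL1 went up.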

How the data were processed

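The deposited intensity values of 54675 probe sets, on a linear scale, were made by the authors with MAS5, per the submitters' processing notes. Its version and settings were not stated; the trimmed mean was 500.06 to 500.07 on each array. Symbols came from GEO's platform annotation, updated through RefSeq's table: 41091 probe sets had 1 symbol and 1801 several, and those with several or none were left out. Values were analysed as log2(signal + 16) with no further normalization, a scale that understates changes of dim genes. The upper 50% of genes by mean were tested with limma 3.58.1 in R 4.3.3 (group as the only term, intensity trend, two-sided, Benjamini-Hochberg adjustment, threshold 0.05), checked on simulated data. Members, lists, motifs and tests were chosen with earlier results of these data known. Values on every array are given, per role, for the gene with the highest mean and the 3 with the smallest p. HSPA4, HSPA4L and HSPA6 were added after their values were seen. The pair of DNAJB6 probe sets with several symbols was also added, outside this rule. Such probe sets of other members are not described, whichever way they changed. Of each other list, up to 3 called genes with the smallest p per direction are named. Alternatives changed the pseudocount, filter, normalization, trend, weights, probe sets, replicate block and arrays. The number of arrays limits the precision.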

Additional observations from a re-analysis of the deposited data

How the results depend on the processing

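Of 830 alternative values of single chaperone genes, 755 kept direction and call, 44 lost the call, 13 gained one and 18 turned sign; all 18 were uncalled in both fits. The cause was not tested in any case. The count of chaperone genes called higher was 16 after median centring and 13 of 27 tested without probe sets ending in _x_at and _s_at, where fewer genes were tested, and 17 to 25 with 1 array left out. The count called lower was 1, HSPB1 alone, with no filter, with the upper 25% of genes and with no trend, it was 1, DNAJB4, without _x_at and _s_at probe sets, where HSPB1 was not tested, and it was 1 to 2 with 1 array left out. Replicate numbers are not stated to pair the samples. The correlations of same-numbered deviations from the group means were 0.119, -0.019 and -0.09, which cannot settle whether samples were paired. With the replicate number as a block 22 genes were called higher and 1 lower. Over all genes, 1290 were called higher and 1131 lower among the upper 25%, and 3385 and 3428 with every probe set as its own unit, where the numbers tested differ.

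Median log2 fold changes of several role groups changed with the processing. For HSP90 they were -0.018 after quantile normalization, 0.006 after cyclic loess, 0.021 with array weights, 0.119 with the mean of probe sets and -0.023 to 0.113 with 1 array left out (lowest without control replicate 1), and for prefoldin 0.086 to 0.151 with 1 array left out (lowest without versican replicate 1). For the HSP90 cochaperones they were 0.134 with the upper 25% of genes and after quantile normalization, 0.133 after cyclic loess, 0.111 with the mean of probe sets and 0.281 without _x_at and _s_at probe sets. For the nucleotide exchange factors they were 0.27 both with the upper 25% and when _x_at and _s_at probe sets were dropped, and 0.138 with the mean of probe sets. For the small heat shock proteins the median was -0.406 with the upper 25%, where HSPB1 alone was left. For HSP70 and HSP110 it was 0.313 with the mean of probe sets, 0.326 without _x_at and _s_at probe sets, and 0.158 to 0.32 with 1 array left out. For the J-domain genes it was 0.025 without _x_at and _s_at probe sets and 0.106 to 0.158 with 1 array left out.

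Signs turned for HSP90AA1 (-0.022 after quantile normalization, -0.023 to 0.113 with 1 array left out), STUB1 (0 after median centring, 0.049 with the mean of probe sets, -0.047 to 0.013), PFDN4 (-0.012 after cyclic loess, -0.027 to 0.043), BAG1 (-0.034 with array weights, -0.054 to 0.16), TRAP1 (-0.149 to 0.063) and HSPB8 (-0.145 to 0.017). With the mean of probe sets DNAJB1 was at -0.064 and CHORDC1 at -0.162. The median of all tested genes, 0.007, was 0.006 after quantile normalization, 0.028 after median centring and 0.005 after cyclic loess. Detection calls were not used here, so how far dim probe sets lie above background was not assessed.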
